A study of Rattus norvegicus with 6 samples.

Results

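A set of 8 genes for surface, secreted and metabolic proteins of epithelia was followed across 6 rat arrays: Cuzd1, Tmigd1, Cdhr5, Epcam, Galnt3, Lcn2, Gpha2 and Ftcd. They are 8 of the 12167 genes that carry a single symbol on the array, and each is read by 1 probe, so they take up 8 of 35129 probes. They were chosen by their measured intensity, because the level in the subcommissural organ was above that in every other tissue, so that order is what chose them and is described here with no test. Every probe annotated to 1 of the 8 symbols was used, and none lacked a value on any array.

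The tissues came from adult male Sprague-Dawley rats labelled as normal, with no treatment. The subcommissural organ (spelled "Subcommisural Organ" in the labels), the subfornical organ and the third ventricle ependyma were each a pool of 2 on 1 array, the pineal gland was on 2 arrays, and total brain, a pool used as the comparison tissue, was on 1. The 4 ventricular structures were taken by laser capture microdissection, and the ependyma was taken away from both organs so as not to include them. The labels name no marker that guided the capture and give no animal for either pineal gland array, so a p-value below covers just the spread of that pair, which may be technical.

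The subcommissural organ is a gland of tall, ciliated ependymal cells in the roof of the third ventricle, under the posterior commissure. It secretes glycoproteins into the cerebrospinal fluid, where they form Reissner's fibre. Its cells stand between the ventricle and the pineal recess, next to ordinary ependyma, which is ciliated but not a gland. In other organs the 8 genes belong to polarised, secreting or absorbing epithelia: Epcam and Tmigd1 code for adhesion proteins of the cell surface, Cdhr5 for a cadherin that links the tips of microvilli, Cuzd1 for a protein of pancreatic zymogen granules, Galnt3 for an enzyme that starts O-linked sugar chains in the Golgi, Lcn2 and Gpha2 for secreted proteins, and Ftcd for a liver enzyme of histidine and folate metabolism.

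The promoters are shown because the 8 genes stand together on 1 array and their start regions can be compared letter by letter. RefSeq windows (assembly GRCr8) of 300 bases, from 250 before to 50 after the annotated start, matched all 8 genes. On both strands 5 motifs were searched: the TATA box as TATAAA, the box of nuclear factor Y as CCAAT, the GC box as GGGCGG, the core of stress elements read by bZIP factors as ACGTG, and an E-box as CAGGTG. Matches are in capitals, and one on the reverse strand is printed as its reverse complement, so that the E-box may read CACCTG. None of the matches shown overlap. The windows of Cuzd1 (chr1:195532684-195532983, minus strand), Cdhr5 (chr1:205811043-205811342, minus strand), Epcam (chr6:12649629-12649928, minus strand), Gpha2 (chr1:212955137-212955436, plus strand) and Ftcd (chr20:12068170-12068469, minus strand) are printed 5′ to 3′. The last 4 are those with CAGGTG, and Cuzd1 is the gene with the widest gap to other tissues. The windows of Gpha2, Tmigd1 and Galnt3 lie inside the spans that RefSeq lists for these genes. Those of Cdhr5 and Lcn2 reach past the end of the span, but the start they are set on also lies inside it. All of these windows thus flank the start of 1 listed transcript and not the outer end of the gene.
Cuzd1: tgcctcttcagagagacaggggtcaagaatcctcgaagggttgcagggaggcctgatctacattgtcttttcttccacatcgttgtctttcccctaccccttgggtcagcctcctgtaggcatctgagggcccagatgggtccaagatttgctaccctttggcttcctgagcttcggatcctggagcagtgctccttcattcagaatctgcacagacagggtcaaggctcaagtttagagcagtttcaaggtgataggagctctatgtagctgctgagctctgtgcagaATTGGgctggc
Cdhr5: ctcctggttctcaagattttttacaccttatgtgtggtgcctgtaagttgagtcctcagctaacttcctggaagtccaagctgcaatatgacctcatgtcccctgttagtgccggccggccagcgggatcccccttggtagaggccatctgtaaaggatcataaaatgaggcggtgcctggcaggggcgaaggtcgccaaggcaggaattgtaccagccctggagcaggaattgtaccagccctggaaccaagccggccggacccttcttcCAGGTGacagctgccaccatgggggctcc
Epcam: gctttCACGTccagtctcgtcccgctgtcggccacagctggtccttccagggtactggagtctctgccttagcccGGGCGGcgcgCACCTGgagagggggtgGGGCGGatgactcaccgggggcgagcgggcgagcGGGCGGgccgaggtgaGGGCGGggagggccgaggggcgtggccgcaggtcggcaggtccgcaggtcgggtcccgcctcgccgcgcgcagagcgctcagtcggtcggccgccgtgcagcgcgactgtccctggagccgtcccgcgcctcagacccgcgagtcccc
Gpha2: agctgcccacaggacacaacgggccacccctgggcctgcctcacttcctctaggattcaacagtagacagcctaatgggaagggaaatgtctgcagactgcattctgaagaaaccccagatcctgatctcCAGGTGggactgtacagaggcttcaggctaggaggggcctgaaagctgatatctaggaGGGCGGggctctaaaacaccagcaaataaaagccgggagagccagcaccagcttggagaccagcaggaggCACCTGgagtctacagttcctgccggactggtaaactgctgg
Ftcd: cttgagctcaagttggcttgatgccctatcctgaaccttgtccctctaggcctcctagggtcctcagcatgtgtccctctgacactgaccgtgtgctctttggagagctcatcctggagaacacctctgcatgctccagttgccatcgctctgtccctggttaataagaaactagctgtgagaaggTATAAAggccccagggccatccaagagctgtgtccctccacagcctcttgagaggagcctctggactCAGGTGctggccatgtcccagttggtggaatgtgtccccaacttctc

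CAGGTG was found in 4 of the 8 windows, against 18.7% of 27457 RefSeq promoters of the same length. GGGCGG was found in 2 (Epcam and Gpha2), against 34.9% of all promoters, TATAAA in 2 (Galnt3 and Ftcd), against 14.3%, CCAAT in 1 (Cuzd1), against 37.7%, and ACGTG in 1 (Epcam), against 19.7%. The TATAAA of Ftcd begins at position -64 from the start. The Epcam window alone carries 4 copies of GGGCGG and is 75.7% G and C, against a median of 52.3% over all promoters. At the other end, the windows of Tmigd1 and Galnt3 are 36.0% and 37.0% G and C, and those of Tmigd1 and Lcn2 hold none of the 5 motifs. No motif was therefore common to the 8 genes, and a match in these letters is a description, not a site in use. No test was run on the shares.

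All values below are the deposited intensities, on a linear scale with no unit. Over the 6 arrays the pooled median of all probes was 1.05, and a level under it is treated as not told apart from the dim majority of probes. The array medians were between 1.04 and 1.07, and the 75th percentile was between 4.90 and 7.93, with total brain highest. No detection call was used, so the limit of detection is unknown, and the number of arrays limits the precision. The SD of the log2 difference between the pineal gland arrays, the only measure of spread, was 0.77 over 8557 genes, and 247 of them (2.89%) lay at least 4-fold apart. In tissue pieces of this kind, fewer cells of a type and less RNA per cell cannot be told apart.

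The subcommissural organ label was set against marker genes. Msx1, a roof plate factor, was at 241 in the subcommissural organ, against 16.5 and 12.9 in the pineal gland, 35.1 in the subfornical organ, 204 in the ependyma and 33.3 in total brain. Pax6, which the developing organ needs, was at 26.7 in the subcommissural organ, against 5.18 and 2.05, 0.372, 1.47 and 0.373 in the same order of tissues. Lmx1a was at 2.21 in the subcommissural organ and under the pooled median on the other 5 arrays, while Gdf7 and Zic1 were under it on all 6. Other genes of that list of 12 did not follow the label: Msx2 read 0.845 in the subcommissural organ, against 2.13 in the subfornical organ, 3.11 in the ependyma and 1.83 in total brain, and Mia, a secreted protein, 2.02 against 23.6 in the ependyma. Clu read 57.8 in the subcommissural organ, below the other 5 arrays (84.2 to 194), and Ttr is given below. Of the 10 measured genes of the list, 2 were at least 4-fold higher in the subcommissural organ than in the ependyma and 1 was lower, with a median log2 difference of 0.30. Sspo, the gene of the main protein of Reissner's fibre, was not analysed here. The 11 motile cilia genes summed to 2776 in the subcommissural organ and 2894 in the ependyma, against 716 in the subfornical organ and 375 in total brain. The 9 pineal genes summed to 12.01 in the subcommissural organ, against 2069 and 1770 in the pineal gland, and of those measured Sag read 4.71 in the subcommissural organ, Pax4 1.42, Tph1 1.25 and Aanat 1.11.

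A first group of 5 genes, Cuzd1, Tmigd1, Cdhr5, Epcam and Galnt3, were well above the pooled median in the subcommissural organ and at background levels elsewhere. Of their 25 values on the other 5 arrays, 24 were under the pooled median, and they ran between 0.138 and 1.37. The exception was Tmigd1 on 1 pineal gland array. Levels under the pooled median are not ordered here, and a fold against them is given as a lower bound taken against 1.05.

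Cuzd1, whose protein has CUB and zona pellucida domains and sits in secretory granules of the pancreas, lies on chr1:195519609-195532733. Its probe read 116 in the subcommissural organ, against 0.397 and 0.204 in the pineal gland, 0.251 in the subfornical organ, 0.412 in the ependyma and 0.370 in total brain. The subcommissural organ alone was above the pooled median, at least 111-fold above each other tissue. Among 9993 genes that reached the pooled median on at least 1 array, Cuzd1 had the widest gap between the subcommissural organ and the next array, also when levels under the pooled median are raised to it.

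Tmigd1, an immunoglobulin-domain adhesion protein of kidney and gut epithelium, lies on chr10:62234764-62249169. Its probe read 32.5 in the subcommissural organ, against 0.717 and 1.37 in the pineal gland, 0.307 in the subfornical organ, 0.378 in the ependyma and 0.343 in total brain. Here the second pineal gland array was just over the pooled median and the first under it. The subcommissural organ was 23.7-fold above that higher pineal array and at least 31.0-fold above the subfornical organ, the ependyma and total brain.

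Cdhr5, the protocadherin that joins neighbouring microvilli of the brush border by binding Cdhr2, lies on chr1:205802686-205811184. It read 11.8 in the subcommissural organ, against 0.340 and 0.438 in the pineal gland, 0.539 in the subfornical organ, 0.699 in the ependyma and 0.476 in total brain. All 5 other arrays were under the pooled median, and the subcommissural organ was at least 11.3-fold above each.

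Epcam, a surface glycoprotein that marks most simple epithelia, lies on chr6:12633715-12649678. It read 9.43 in the subcommissural organ, against 0.567 and 0.386 in the pineal gland, 0.138 in the subfornical organ, 0.626 in the ependyma and 0.614 in total brain. Again only the subcommissural organ was above the pooled median, at least 8.98-fold over every other array.

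Galnt3, which attaches the first sugar of mucin-type chains to proteins passing through the Golgi, lies on chr3:71150559-71187321. It read 15.1 in the subcommissural organ, against 0.638 and 0.233 in the pineal gland, 0.983 in the subfornical organ, 0.553 in the ependyma and 0.175 in total brain. The subfornical organ came closest to the pooled median but stayed under it, and it was at least 14.3-fold lower than the subcommissural organ, as was every other tissue.

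The other 3 genes, Lcn2, Gpha2 and Ftcd, were highest in the subcommissural organ but were also read elsewhere, and each in a different order of tissues. A step in that order is set here against the SD of 0.77 on the log2 scale from the pineal pair, which is a yardstick and not a test.

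Lcn2, a secreted lipocalin that binds bacterial siderophores and carries iron, lies on chr3:36078432-36081851. It read 124 in the subcommissural organ, against 14.9 and 14.3 in the pineal gland, 32.4 in the subfornical organ, 1.15 in the ependyma and 2.87 in total brain. The order was thus subcommissural organ, subfornical organ, pineal gland, total brain and ependyma, so the 3 circumventricular organs stood above the brain pool and the ordinary ventricle wall was lowest. The log2 steps down that order were 1.94, 1.15, 2.34 and 1.32, all wider than 0.77.

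The subcommissural organ exceeded the next tissue, the subfornical organ, 3.84-fold for Lcn2, and exceeded the ependyma 108-fold, total brain 43.3-fold and the pineal gland 8.55-fold. Lcn2 is also a granule protein of neutrophils and is induced in glia, so their markers are given beside it. Of 9 neutrophil markers 7 were under the pooled median in the subcommissural organ, and the list summed to 7.19, against 3.88 to 8.44 on the other arrays. The measured ones were S100a9, at 1.09 in the subcommissural organ, and Mpo, which read 2.98 there, against 0.223 and at the floor in the pineal gland, 0.486 in the subfornical organ, 3.65 in the ependyma and 0.399 in total brain. Mpo was thus higher along with Lcn2 against the pineal gland, the subfornical organ and total brain, at least 2.83-fold, but not against the ependyma, and its part in the Lcn2 level was not tested. The 13 microglia and macrophage markers summed to 108 in the subcommissural organ, against 245 and 239 in the pineal gland, 818 in the subfornical organ, 571 in the ependyma and 480 in total brain. The 10 astrocyte markers summed to 306 in the subcommissural organ, against 291 and 135 in the pineal gland. They summed to 1334 in the subfornical organ, 932 in the ependyma and 1392 in total brain. The part of glia in the Lcn2 level was not tested.

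Gpha2, the alpha subunit of the glycoprotein hormone thyrostimulin, lies on chr1:212954579-212956536. It read 32.5 in the subcommissural organ, against 9.41 and 13.9 in the pineal gland, 3.30 in the subfornical organ, 0.361 in the ependyma and 6.72 in total brain. Only the ependyma was under the pooled median. Gpha2 had the narrowest gap of the 8 genes, the subcommissural organ standing 2.35-fold above the higher pineal gland array. The step between the pineal gland and total brain, 0.76 on the log2 scale, was not wider than the pineal SD, whereas those from the subcommissural organ to the pineal gland (1.51), from total brain to the subfornical organ (1.03) and from there to the ependyma (3.19, or at least 1.65 as a bound) were.

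Ftcd, formimidoyltransferase cyclodeaminase, which passes a carbon unit from histidine breakdown to folate, lies on chr20:12054710-12068219. It read 164 in the subcommissural organ, against 1.06 and 0.118 in the pineal gland, 1.51 in the subfornical organ, 2.26 in the ependyma and 6.25 in total brain. The subcommissural organ was 26.3-fold above total brain, 72.8-fold above the ependyma and 109-fold above the subfornical organ. The ependyma and the subfornical organ differed by 0.58 on the log2 scale, within the pineal SD. The pineal gland arrays disagreed with each other for Ftcd by more than 4-fold, 1 lying just over the pooled median and the other below the floor of 0.142 that was set for log2 values.

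Ftcd is best known from hepatocytes, and of 8 liver genes 7 were under the pooled median in the subcommissural organ. They summed to 5.87 there, against 4.41 to 6.25 on the other arrays, and the only one measured against the ependyma, Tat, read 2.68 against 1.99. About 33.9% of all genes were under the pooled median on that array.

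**Figure D1:**
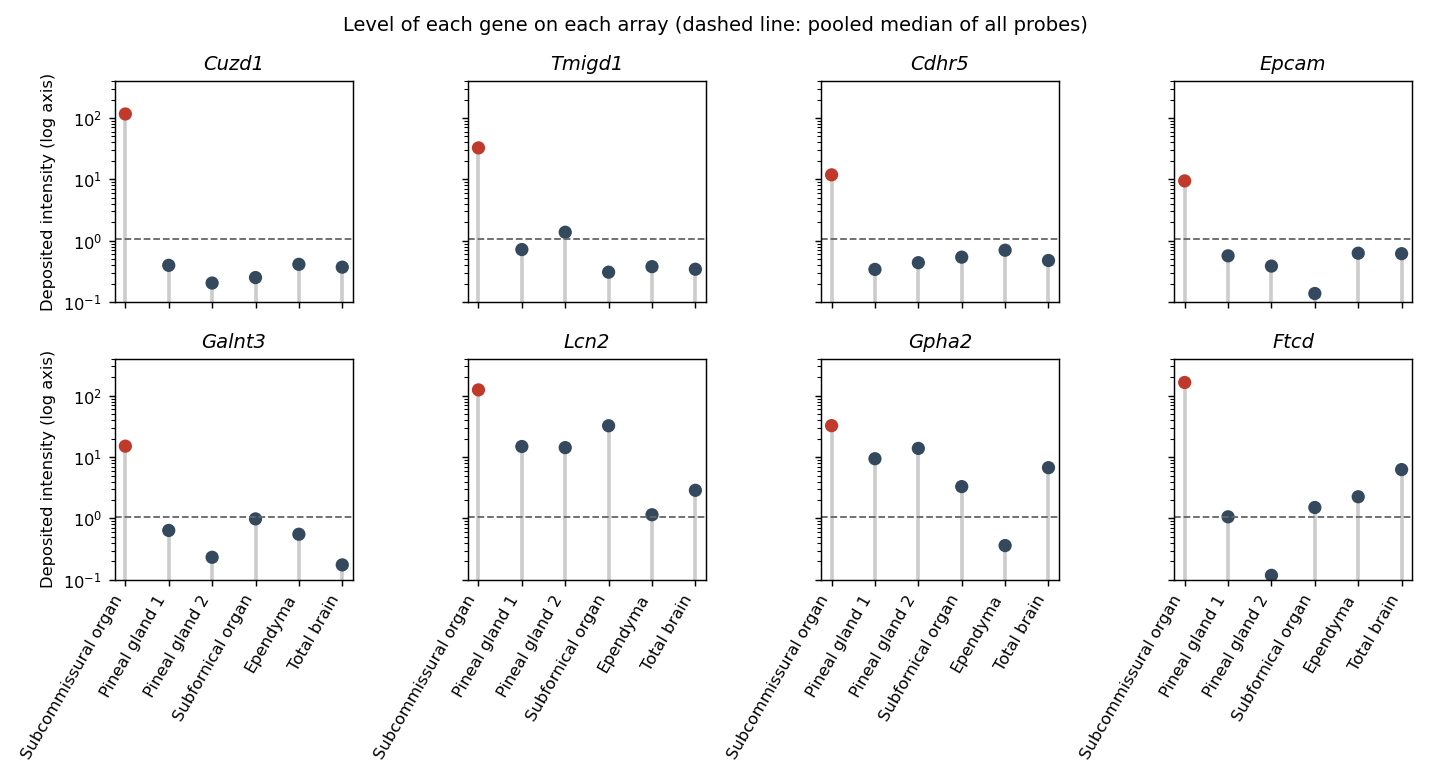
Deposited intensity (log axis, no unit) of each of the 8 genes on the 6 arrays, 1 point per array and 1 panel per gene, with the subcommissural organ in red and the pooled median of 1.05 as a dashed line. The top row and Galnt3 have other points at or under the line, except Tmigd1 on the second pineal gland array (1.37), while Lcn2, Gpha2 and Ftcd are also read above it in other tissues.

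The gap to the next array sets the 8 genes against the whole array. Of 9993 genes that reached the pooled median somewhere, 1742 (17.4%) were higher in the subcommissural organ than on each of the other 5 arrays, which holds for all 8 by their choice. A gap of at least 4-fold was found for 60 genes (0.6%), among them 6 of the 8. With every level under the pooled median raised to it, so that gaps are bounds, Cuzd1 was placed 1, Ftcd 5, Tmigd1 6, Galnt3 9, Cdhr5 12, Epcam 17, Lcn2 59 and Gpha2 159. The genes placed 2 to 4 were Mafk, Creb3l4 and Hsd11b2. On the values as read, Cdhr5 and Epcam were placed 7 and 10, so their places turn on background values on the other arrays. Just outside 4-fold was Lcn2, at a log2 gap of 1.94. For comparison, 76 genes had such a gap in the subfornical organ, 53 in the ependyma, 158 in total brain and 103 on both pineal gland arrays.

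**Figure D2:**
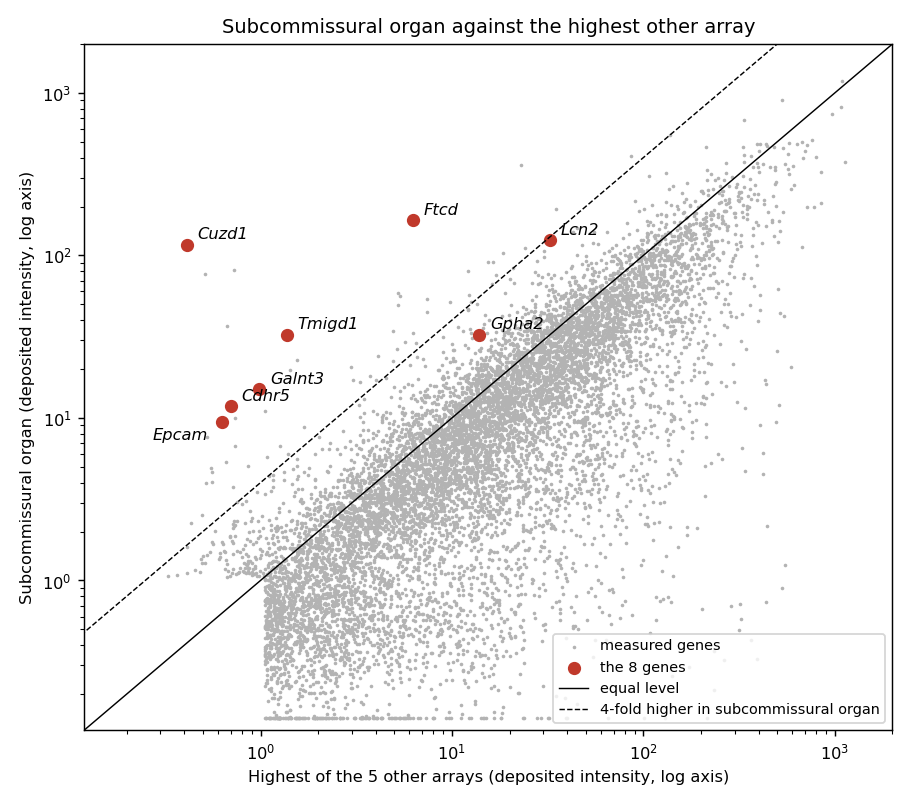
Level in the subcommissural organ (vertical) against the highest of the other 5 arrays (horizontal), both as deposited intensity on log axes, for 9993 measured genes in grey and the 8 genes in red. Cuzd1 stands farthest above the line of equal level, 6 of the 8 are above the dashed 4-fold line, Lcn2 lies just under it at 3.84-fold and Gpha2 at 2.35-fold.

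Against each tissue in turn the 8 genes had the following log2 differences, which the choice of genes fixes in sign and which are given with no test. Levels under the pooled median were raised to it for these differences, so the medians are lower bounds, and the all-gene medians beside them were taken the same way. The shares of all genes were instead counted without raising levels to the pooled median. Those counts were 445 genes against the ependyma, 692 against the subfornical organ, 799 against total brain and 904 against the pineal gland. With levels raised to the pooled median they were 259, 461, 567 and 676, so the shares would be smaller. For subcommissural organ minus ependyma the median was 4.95 (lowest 3.17, highest 6.79, with 6 of the 8 as bounds), beside 0.06 over all measured genes. All 8 were at least 4-fold higher, as were 5% of 8893 measured genes. Minus the subfornical organ the median was 3.67, with 5 bounds, beside −0.05 over all genes, and 7 of 8 were at least 4-fold higher, against 7.65% of all. Minus total brain the median was 4.28, with 5 bounds, beside −0.25 over all genes, and 8 of 8 were at least 4-fold higher, against 8.76% of all. Minus the pineal gland the median was 3.67, with 6 bounds, beside 0.11 over all genes, and 7 of 8 were at least 4-fold higher, against 10.2% of all. The gene short of 4-fold was Lcn2 against the subfornical organ and Gpha2, at 2.85-fold, against the pineal gland.

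Comparisons that leave out the subcommissural organ were not used to choose the genes. Between tissues Lcn2, Gpha2 and Ftcd alone had a side at or above the pooled median, and the other 5 genes were not tested. Tmigd1 was among these, since its second pineal gland array was above the pooled median but the mean log2 of the pair was under it. With 2 arrays, the pineal gland could be tested with limma against each single array. The fit has 1 residual degree of freedom per gene and assumes that the lone array varies like the pineal pair. It pooled the spread over all measured genes, with 9077, 8964 and 9001 total degrees of freedom against total brain, the ependyma and the subfornical organ. Every gene thus had the same standard error, 0.73, 0.72 and 0.73 in that order. A gene's own pineal spread did not set its standard error, also for Ftcd, whose pair lay more than 4-fold apart. The pair's SD was 1.79 for genes with a mean under the pooled median and 1 array at or above it, against 0.77 over all. The pooled standard error may thus be too small for Gpha2 against the ependyma and for Ftcd, which have a side under the pooled median. Their adjusted p-values were larger in each setting below in which limma used gene-wise spreads. A call was in effect a log2 difference of at least 1.83, 1.85 and 1.86.

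Lcn2 was higher in the pineal gland than in total brain, 14.9 and 14.3 against 2.87, a log2 difference of 2.34 ± 0.73 (SE; limma adjusted p = 0.00766), with both pineal arrays above it. It was also higher in the pineal gland than in the ependyma, at 1.15, by 3.66 ± 0.72 (limma adjusted p = 6.45e-06). Against the subfornical organ, at 32.4, the pineal gland did not pass the test, with a log2 difference of −1.15 ± 0.73 (limma adjusted p = 0.296).

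Gpha2 was higher in the pineal gland than in the ependyma, 9.41 and 13.9 against 0.361, which is at least 10.9-fold, with a log2 difference of 4.98 ± 0.72 (limma adjusted p = 1.95e-10). Against total brain its log2 difference was 0.76 ± 0.73 (limma adjusted p = 0.521), and against the subfornical organ 1.79 ± 0.73 (limma adjusted p = 0.0624). Neither passed the test, although both pineal arrays were above both tissues.

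Ftcd was lower in the pineal gland than in total brain, 1.06 and 0.118 against 6.25, at least 5.95-fold, with a log2 difference of −4.01 ± 0.73 (limma adjusted p = 6.37e-07). It was also lower than in the ependyma, at least 2.15-fold, with a log2 difference of −2.54 ± 0.72 (limma adjusted p = 0.00339), and than in the subfornical organ, at least 1.43-fold, with −1.96 ± 0.73 (limma adjusted p = 0.0367). The log2 differences, unlike the bounds, use a pineal gland mean of 0.388 that lies under the pooled median. These sizes lean on the second pineal array. Without it the log2 differences were −2.56, −1.09 and −0.50, and without the first they were −5.46, −3.99 and −3.41, in the order total brain, ependyma, subfornical organ.

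Among all measured genes limma called 24% in pineal gland against total brain (7.72% higher and 16.3% lower), 20.3% against the ependyma (7.32% and 13%) and 20.9% against the subfornical organ (7.05% and 13.8%), beside 2, 3 and 1 of the 3 genes tested. No call of the 3 genes survived when values were floored at the pooled median, a setting in which limma called 0 genes in all: the adjusted p was then 0.0959 for Lcn2 against total brain, 0.119 for Lcn2 and 0.152 for Gpha2 against the ependyma, and for Ftcd 0.0948, 0.143 and 0.211. Ftcd lost all 3 calls after quantile normalization (adjusted p = 0.147, 0.268 and 0.355) and without the filter (0.0957, 0.298 and 0.401), and Lcn2 lost that against total brain without the filter (0.0751).

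Between tissues with 1 array each there is no test. Lcn2 was 11.3-fold higher in the subfornical organ than in total brain and 28.2-fold lower in the ependyma than in the subfornical organ. Gpha2 was at least 6.40-fold lower in the ependyma than in total brain, and its level in the subfornical organ was 2.04-fold lower than in total brain. Ftcd was 4.15-fold lower in the subfornical organ and 2.77-fold lower in the ependyma than in total brain. At 4-fold this gave 2 of 3 genes for the subfornical organ against total brain (1 higher, 1 lower), beside 17% of all genes in either direction, 1 of 3 for the ependyma against total brain, beside 17%, and 2 of 3 for the ependyma against the subfornical organ, beside 13.6%. The last count uses values down to 0.142 and includes Gpha2, whose bound there was 3.14-fold.

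The 8 profiles were compared with each other and with 6828 other genes by the root mean square difference of log2 levels over the 6 arrays after each gene's mean was taken off, where 0 is the same profile. Many of these levels are near background, where the pineal pair had an SD of 1.79 for genes with a mean under the pooled median, and no p-value is attached. Within the set, the closest were Cdhr5 and Epcam at 0.83, Cdhr5 and Galnt3 at 0.88 and Tmigd1 and Cdhr5 at 1.08. Lcn2 was closest to Gpha2, at 1.45, and Gpha2 and Ftcd were the farthest apart, at 3.20.

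Outside the set, Cuzd1 was closest to Creb3l4, a membrane-bound transcription factor of the endoplasmic reticulum, at 0.49. Creb3l4 read 76.5 in the subcommissural organ, against 0.515 and 0.243 in the pineal gland, 0.142 in the subfornical organ, 0.283 in the ependyma and 0.445 in total brain. Mafk, a small Maf factor, followed at 0.82 and Hsd11b2, which inactivates corticosterone, at 1.06. Thus the subcommissural organ was the only array above the pooled median for Creb3l4, Mafk and Hsd11b2, as it was for Cuzd1.

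Tmigd1 was closest to Ovol2 (0.69), a zinc finger factor of epithelial cells that read 9.99 in the subcommissural organ and at most 0.739 elsewhere, then to Dennd2d (0.70) and Hsd11b2 (0.75). Cdhr5 was closest to Rgs8 (0.43), Cdh11 (0.54) and Dennd2d (0.55). Cdh11, a cadherin of mesenchymal cells, read 58.9 in the subcommissural organ, against 3.15 to 5.21 on the other arrays. Epcam was closest to Plpp4 (0.65), Lrrc26 (0.66) and Spsb4 (0.69), and Galnt3 to Cdca7 (0.40), Pwwp3b (0.58) and Hsd11b2 (0.69).

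Lcn2 was closest to Chmp4c (0.93), Nt5c (0.93) and Mdfic (0.97), all of them also lowest in the ependyma or in total brain. Gpha2 was closest to Fkbp14 (0.69), Nt5c (0.72) and LOC690120 (0.84). Fkbp14, a folding enzyme of the endoplasmic reticulum, read 11.6 in the subcommissural organ, against 13.2 and 12.8 in the pineal gland and 0.165 in the ependyma. Ftcd had the least close neighbours: Mafk (1.04), Gfra1 (1.16), the GDNF receptor, and Pip5k1b (1.28). Hsd11b2 was named for 3 of the 8 genes, and Mafk, Dennd2d and Nt5c for 2 each. By Pearson correlation in place of this distance, 4 of the 24 named neighbours stayed the same.

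**Figure D3:**
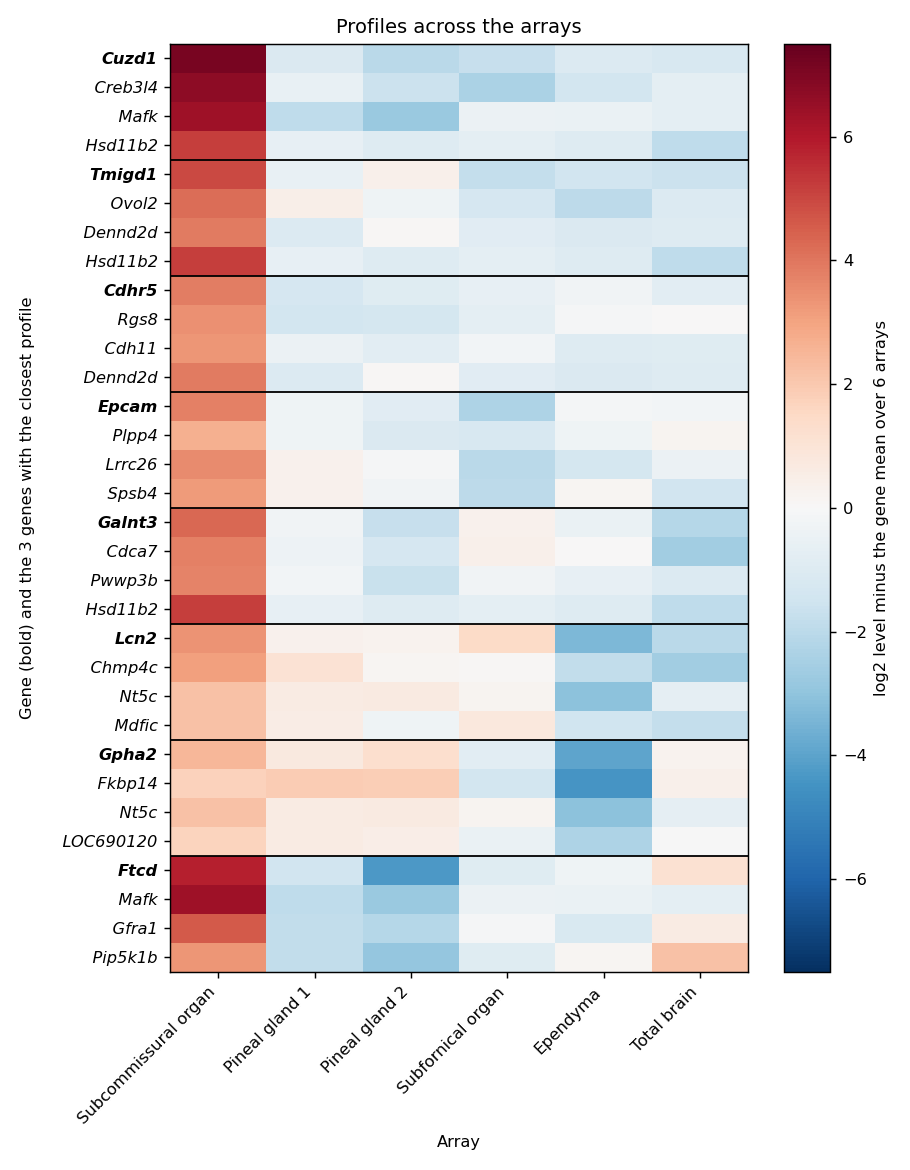
Log2 level on each array minus the gene's own mean over the 6 arrays (colour, log2 units) for each of the 8 genes (bold) and the 3 genes with the closest profile. Red fills the subcommissural organ column throughout, and in the ependyma column the deepest blue is that of Gpha2 (0.361), Fkbp14 (0.165), Lcn2 (1.15) and Nt5c (1.11).

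Other genes of the same pathways were read from lists chosen with earlier results known, in the subcommissural organ against the ependyma. The 8 genes were chosen for a level above that in every other tissue, and the list genes were not. That the 8 genes stand above their families follows from this choice and is not a result. All of these list comparisons have 1 array on each side, so a count means past 4-fold and no more. Counts and list medians use values down to the floor of 0.142, so a gene may be counted whose bound against 1.05 is under 4-fold. The counts stand beside 5% of all genes higher and 7.89% lower.

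Many other epithelial genes read low in the subcommissural organ, as they did on the other arrays. Of 24 adhesion and identity genes on the array 15 were under the pooled median in the subcommissural organ, against 33.9% of all 12167 genes, among them Cdh1 at 0.465, the cadherin of most epithelia, Cldn4 at 0.592, Cldn7 at 0.223, which binds Epcam in other tissues, Grhl2 at 0.409 and Elf3 at 0.203. On the other arrays the list had 12 and 14 genes under the pooled median in the pineal gland, 13 in the subfornical organ, 13 in the ependyma and 15 in total brain. Of the 12 measured against the ependyma, 1 was at least 4-fold higher and 4 were lower, with a median log2 difference of 0.23 beside 0.06 over all genes. The higher one was the tight junction gene Cldn3, at 3.75 in the subcommissural organ against 0.309 in the ependyma, 1.92 in the subfornical organ and 0.234 in total brain, a bound of at least 3.57-fold over the ependyma. Among the lower ones, the tight junction plaque gene Tjp3 read 7.06 in the subcommissural organ against 48.9 in the ependyma, and the keratin Krt8 11.9 against 56.2. In total brain they read 3.64 and 1.66. Against total brain 4 of 11 measured list genes were at least 4-fold higher and 1 lower (median 0.65). Against the subfornical organ these were 0 and 1 of 11 (median 0.91), and against the pineal gland 2 and 3 of 13 (median −0.19). In that order 8.76%, 7.65% and 10.2% of all genes were higher, with all-gene medians of −0.29, −0.06 and 0.20.

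Spint2, a protease inhibitor of epithelial surfaces, read 164 in the subcommissural organ against 104 in the ependyma and 11.8 in total brain. It is named after its values were seen, as are Krt8 and the 5 genes listed under the pooled median.

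Cdhr5 and Tmigd1 belong to brush borders. Of 18 microvillus genes 10 were measured, 2 were at least 4-fold higher and 0 lower, with a median of 0.01. Prom1, a protein of membrane protrusions, read 91.6 in the subcommissural organ, against 6.02 and 3.58 in the pineal gland, 9.75 in the subfornical organ, 16.3 in the ependyma and 8.51 in total brain. Pdzk1, a scaffold under the brush border membrane, read 6.01 in the subcommissural organ, against 0.744 and 1.40, 0.510, 0.155 and 0.391 in the same order. Both were at least 4-fold above all 5 other arrays.

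The partner of Cdhr5 did not share its pattern. Cdhr2 read 7.30 in the subcommissural organ, against 5.83 and 5.46 in the pineal gland, 17.3 in the subfornical organ, 9.75 in the ependyma and 28.7 in total brain. Of the proteins that anchor the Cdhr2 and Cdhr5 pair in the microvillus tip, Ush1c read 3.23 in the subcommissural organ and 3.23 in the ependyma, and Calml4 319 against 225. Anks4b read 7.55 against 3.67, and Myo7b was under the pooled median in both. Cdhr2, Ush1c, Calml4, Anks4b and Myo7b are given for their known link to Cdhr5, with their values already seen.

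Galnt3 has many relatives. Of 15 measured genes of mucin-type O-glycosylation 3 were at least 4-fold higher and 3 lower, with a median of 0.30. St6galnac2, which caps such chains with sialic acid, read 26.3 in the subcommissural organ, against 10.3 and 6.75 in the pineal gland, 0.821 in the subfornical organ, 1.08 in the ependyma and 0.514 in total brain. Galnt10 was at 2.32 in the subcommissural organ against 0.491 in the ependyma. In the opposite direction Galnt6 read 1.61 in the subcommissural organ against 29.5 in the ependyma, and Galnt13 0.338 against 2.63.

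The gap of Lcn2 to the ependyma was not shared by the lipocalins read beside it. Of 7 measured genes of lipocalins and their receptors 0 were at least 4-fold higher and 1 was lower, with a median of 0.32. Slc22a17, a receptor for Lcn2, was read on all arrays, at 176 in the subcommissural organ, against 79.2 and 50.7 in the pineal gland, 158 in the subfornical organ, 103 in the ependyma and 226 in total brain. The lipocalin Ptgds, the prostaglandin D synthase of meninges and glia, read 16.3 in the subcommissural organ against 66.1 in the ependyma and 437 in the subfornical organ.

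For Gpha2, the partner subunit Gphb5 was not analysed here. Tshr, the receptor of thyrostimulin, read 1.23 in the subcommissural organ, against 1.16 and 1.72 in the pineal gland, 3.07 in the subfornical organ, 1.88 in the ependyma and 2.00 in total brain, none of them far above the pooled median. Cga, the alpha subunit shared by the other glycoprotein hormones, read 0.178 in the subcommissural organ against 2.21 in the ependyma. Lhb read 72.8 in the subcommissural organ, against 2.97 and 3.79 in the pineal gland, 9.28 in the subfornical organ, 37.2 in the ependyma and 9.49 in total brain. Of the 3 genes measured in the family 0 were at least 4-fold higher and 1 was lower, with a median of −0.62.

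Against the ependyma, the pathway around Ftcd was flat by comparison. Of 19 measured genes of histidine breakdown and folate metabolism 1 was at least 4-fold higher and 1 lower, with a median of 0.22. Hal, which takes the first step of histidine breakdown, read 1.80 in the subcommissural organ against 1.46 in the ependyma, and Amdhd1, which acts between Hal and Ftcd, was under the pooled median on all 6 arrays. The higher gene was Mthfd2, a mitochondrial folate enzyme, at 5.77 in the subcommissural organ against 0.339 in the ependyma. The lower was Aldh1l1, a folate enzyme of astrocytes, at 2.46 against 31.1. Hal and Amdhd1 are named for their place in the pathway of Ftcd, with their values already seen. Against the other tissues the list stood higher. Its median was 0.94 against total brain, 0.63 against the subfornical organ and 0.92 against the pineal gland. Beside these stood −0.29, −0.06 and 0.20 over all genes. In the same order 3 of 18, 4 of 17 and 3 of 19 measured genes were at least 4-fold higher, and 1 was lower each time. The shares of all genes higher were 8.76%, 7.65% and 10.2%.

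Cuzd1 has no close family on the array. Of 15 genes with zona pellucida or CUB domains 10 were under the pooled median in the subcommissural organ, against the same 33.9% of all genes. The other arrays had 9 and 11 of them under it in the pineal gland, 9 in the subfornical organ, 14 in the ependyma and 10 in total brain. Against the ependyma 5 were measured and 0 passed 4-fold in either direction, with a median of 1.09. The highest difference was that of Pcolce, an enhancer of procollagen processing, at 4.76 in the subcommissural organ against 1.47 in the ependyma, and it read 91.3 in the subfornical organ. The others were Cubn (1.49 in the subcommissural organ against 0.651 in the ependyma), Scube1 (1.43 against 0.671), Oit3 (1.26 against 0.665) and Tgfbr3 (1.22 against 0.737), all near the pooled median.

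**Figure D4:**
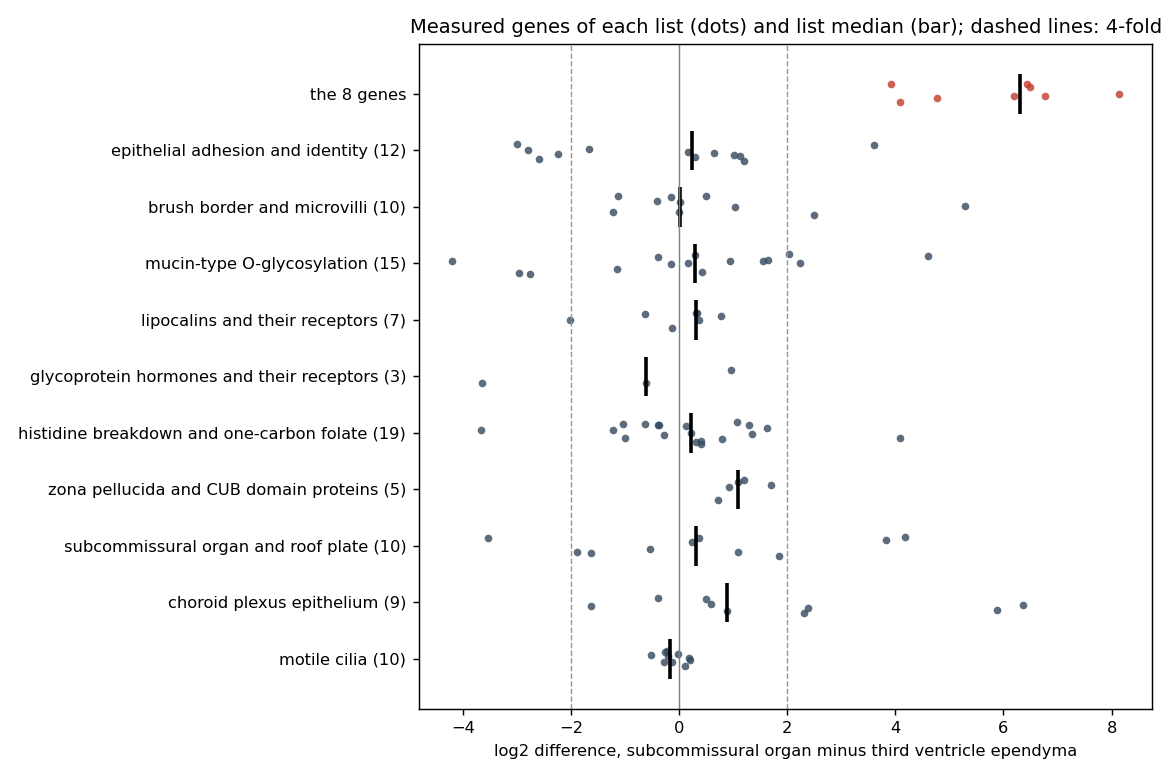
Log2 difference of subcommissural organ minus the third ventricle ependyma for the measured genes of each list (dots, number in brackets) and the list median (bar), with dashed lines at 4-fold and the 8 genes on top. The 8 genes lie between 3.91 and 8.14, where the values down to the floor are drawn, while the medians of the other lists lie between −0.62 and 1.09. The 8 genes were chosen for a high level in the subcommissural organ, so their place above the lists follows from the choice.

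Choroid plexus, an epithelium that also lines the ventricle, was read beside these results. Of its 18 markers 9 were under the pooled median in the subcommissural organ, against 33.9% of all genes. The other arrays had 8 and 9 under it in the pineal gland, 12 in the subfornical organ, 12 in the ependyma and 6 in total brain. Of the 9 measured against the ependyma, 4 were at least 4-fold higher and 0 lower, beside 5% and 7.89% of all genes. Their median log2 difference was 0.89, beside 0.06 over all genes. The list summed to 588 in the subcommissural organ, against 465 and 382 in the pineal gland, 184 in the subfornical organ, 350 in the ependyma and 334 in total brain. Calml4, also read above as a microvillus gene, made up 319 of the sum in the subcommissural organ and 225 of that in the ependyma. Ttr, the most abundant choroid plexus transcript, read 1.61 in the subcommissural organ against 4.97 in the ependyma and 116 in total brain, and Kl, Clic6 and Aqp1 were under the pooled median there. Kcnj13, in contrast, read 28.5 in the subcommissural organ against 0.349 in the ependyma and 9.98 in total brain, and Kcne2 29.1 against 0.495 and 4.24, while Folr1 read 60.7 against 79.7 in the ependyma. Against the subfornical organ 4 of 9 measured markers were at least 4-fold higher and 1 lower, with a median of 1.56. Against total brain 4 of 12 were higher and 6 lower (median −1.13), and against the pineal gland 4 of 11 and 3 (median 0.07). In that order 7.65%, 8.76% and 10.2% of all genes were higher, and the all-gene medians were −0.06, −0.29 and 0.20. The part of choroid plexus cells in the levels of the 8 genes was not tested.

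Of the cell types that the neighbouring tissue could add, 11 neuron markers summed to 75.02 in the subcommissural organ against 203 in the ependyma and 1044 in total brain, and 13 oligodendrocyte markers to 381 against 527 and 1884. The 11 endothelial markers summed to 69.8 in the subcommissural organ against 113 in the ependyma and 295 in total brain, and the 12 markers of meninges, mural cells and fibroblasts to 41.8 against 20.8 and 77.0. In that last list Dcn, a fibroblast proteoglycan, read 23.2 in the subcommissural organ against 1.19 in the ependyma and 8.52 in total brain. The 4 red blood cell markers summed to 15.6 against 30.9 and 66.6, and 8 habenula markers to 33.5 against 40.8 and 97.6. Of the red blood cell genes, Ahsp read 11.2 in the subcommissural organ against 15.4 in the ependyma, Slc4a1 1.85 against 0.974, Alas2 1.82 against 13.4 and Hba-a2 0.774 against 1.13. Of the habenula genes, Calb2 read 23.1 in the subcommissural organ against 18.6 in the ependyma, Tac1 7.50 against 16.8, and Tac3 was at the floor against 2.68. Their part in the levels of the 8 genes was not tested.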

How the data were processed

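The 6 one-colour (Cy5) arrays were made from 3 ng of total RNA each, amplified in 2 rounds of in vitro transcription, per the labels' protocols. The deposited values are linear intensities, 1 for each probe on each array; not given in the sources used here are the scanner, the background correction and the scaling the authors used; array medians lie within 1.04 to 1.07.

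The value −9999 was read as missing (166 of 35129 probes lacked a value on at least 1 array). Of the probes, 16865 had 1 gene symbol, 165 several and 18099 none listed; 16836 were found in RefSeq. Values under 0.142 (5th percentile) were raised to it, log2 was taken, and the brightest probe stood for each gene. Differences were called at 4-fold where the higher side reached 1.05, the pooled median. The pineal gland used the mean log2 of 2 arrays, both on the same side. limma 3.58.1 (R 4.3.3) with Benjamini-Hochberg adjustment, at 0.05, tested pineal gland comparisons. It was also run on simulated data in which every gene had the same spread, so that run cannot speak to spreads that differ by level. Genes named from lists come from the 2 with the highest and the 2 with the lowest difference from the ependyma, from lists of 5 or fewer measured genes, in full, and from list genes 4-fold above all other arrays. Exceptions, named with values seen, are Msx1, Gdf7, Zic1, Clu, Kl, Clic6 and Aqp1, and those stated in the text. For each of the 8 genes, the 3 closest profiles are named. The 8 genes, the lists, the bound at 1.05 and the alternatives were chosen with earlier results of these data known.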

Additional observations from a re-analysis of the deposited data

How the results depend on the processing

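Under 7 alternatives none of 232 log2 differences of the 8 genes between the subcommissural organ and another tissue turned its sign. Of these, 203 moved by less than the SD of 0.55 per pineal gland array. Most of this was fixed in advance. The filters leave these values as they are and each gene has 1 probe, so filters and probe means could not move them. The floor at the pooled median and a left-out pineal array could not turn a sign, because the genes were chosen above every other tissue. Quantile normalization, which could, moved all 40 of its differences by less than 0.55. The floor at the pooled median lowered 23 of 40, and leaving out a pineal array moved 2 or 4 of 16. The counts of these genes at 4-fold stayed at 8, 7, 8 and 7 (against ependyma, subfornical organ, total brain and pineal gland) and 6 (against the highest other array). The counts over all genes moved by over 1.5 times as follows. With a filter at the pooled 75th percentile the 4-fold counts were 569 for the subcommissural organ against the ependyma (1147 as reported), 1052 against the subfornical organ (1757), 1423 against total brain (2163) and 1054 against the pineal gland (1637). For the pineal gland they were 1245 against total brain (1928), 1036 against the ependyma (1639) and 1065 against the subfornical organ (1681). They were 887 for the ependyma and 875 for the subfornical organ against total brain (1548 and 1558), 626 for the ependyma against the subfornical organ (1235) and 26 between the pineal arrays (247). Fewer genes are tested with that filter. With no filter the pineal pair gave 442. With the floor at the pooled median the counts were 693 for the subcommissural organ against the ependyma, 783 for the ependyma against the subfornical organ and 48 for the pineal pair. limma called 1200, 1098 and 1024 genes after quantile normalization (pineal gland against total brain, ependyma and subfornical organ; 2177, 1822 and 1881 as reported), 1018, 731 and 635 with no filter, and 0, 0 and 0 with the floor at the median, where 2484, 2149 and 2272 genes had an unadjusted p under 0.05. The cause was not tested; the fit gave every gene 1 spread as reported and with the stricter filter, and gene-wise spreads after quantile normalization, with no filter and with the floor. Gpha2 in the pineal gland against the subfornical organ was called with the stricter filter (limma adjusted p = 0.0266). Quantile normalization moved the share of higher genes among 4-fold calls from 32.2% to 44.9% for the pineal gland against total brain and from 44.0% to 56.3% for the ependyma against total brain, and the all-gene median of those comparisons from −0.45 to 0.03 and from −0.41 to −0.06. Without a pineal array no residual degree of freedom is left, so limma was not run. No paired analysis was possible because the tissues share no replicate number beyond the first. With 1 array per tissue and values near background on the lower side, folds of the 5 genes seen in the subcommissural organ alone are bounds.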
